A study of Mus musculus with 577 samples.

Results

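Kit, which encodes the receptor tyrosine kinase KIT, and Kitl, which encodes KIT ligand (stem cell factor), are 2 of the 22060 protein-coding genes in each of the 8 tables of gene counts, and their rows were taken from every table by gene symbol. Both genes were present in every table, so that no value is missing. The data were 562 libraries counted at the 3′ ends of genes, of which 525 held 1 cell each, and 15 libraries counted over exons and exon–exon junctions, from 577 labelled samples. The single cells were mouse oocytes, mouse granulosa cells, which surround the oocyte in the follicle, and mouse embryonic stem cells (mESCs), and the other libraries of genes were 16 sections of 8 oocytes, 14 small pools of granulosa cells and 7 bulk granulosa samples.

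The ovaries came from 8-week-old female mice with no genetic change named. The strain is not given in the sources used here. Frozen ovaries were cut at 15 μm, fixed in alcohol and stained, and cells were taken from the sections by laser capture microdissection (LCM). In 1 set of libraries the sections were instead fixed in formalin for 24 h. Oocytes were labelled by follicle as primary or secondary-antral, and granulosa cells by position as neighboring or non-neighboring to the oocyte. DRaqL, the lysis of fixed cells in a denaturing detergent that is then quenched, preceded 3 chemistries (SC3-seq, the SMART-Seq v4 3′ DE kit and Smart-seq2). Both cell types were also amplified by the v4 kit without DRaqL and, after formalin, by DRaqL-Smart-seq2 with a protease step, and granulosa cells alone by the earlier LCM protocol for Smart-seq2. In a further set, 1 ovary of 1 mouse in proestrus was sectioned while the other was dissociated, which gave LCM cells and fresh cells of 1 animal, and there the fresh oocytes were labelled as grown. For fresh granulosa cells, neighboring stands for attached to the oocyte and non-neighboring for other cells of cumulus–oocyte complexes. The mESCs, cultured with inhibitors of GSK3 and MEK and with LIF, were either freshly dissociated or taken by LCM from sections of a frozen block. The labels name no mouse for the other sets, and a group of single cells was therefore counted as 1 sample, given with the spread over its cells and without a p-value.

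KIT is a receptor at the surface of germ cells, melanocytes, mast cells and blood progenitors, and in the ovary it lies on the oocyte. KIT ligand is made as a membrane protein by granulosa cells, which also release a soluble form after cleavage, and its binding lets KIT activate phosphoinositide 3-kinase, RAS and STAT proteins. Loss of function of either gene is known to disturb germ cells, pigment cells and blood in mice.

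Kit (ENSMUSG00000005672) lies on the plus strand of chromosome 5 at chr5:75574916-75656722 of GRCm38, spans 81807 bases and has 8 annotated transcripts, 2 of them coding. Kitl (ENSMUSG00000019966) lies on the plus strand of chromosome 10 at chr10:100015630-100100416, spans 84787 bases and has 6 transcripts, 4 of them coding. The start regions of both genes are shown because the list of regulators used below holds basic helix-loop-helix factors (Sohlh1, Sohlh2 and Mitf), a class of factors that binds E-boxes. They run from 150 bases before to 30 bases after the RefSeq start site on the plus strand (GRCm38.p6, chr5:75574837-75575016 for Kit, the first of its 2 RefSeq entries, and chr10:100015671-100015850 for Kitl), and capitals mark E-boxes (CANNTG), TATA boxes (TATAAA) and GC boxes (GGGCGG), searched on both strands.
Kit: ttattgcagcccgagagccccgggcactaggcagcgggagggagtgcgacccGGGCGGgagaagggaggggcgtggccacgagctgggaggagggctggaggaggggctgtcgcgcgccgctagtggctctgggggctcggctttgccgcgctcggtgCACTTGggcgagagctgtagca
Kitl: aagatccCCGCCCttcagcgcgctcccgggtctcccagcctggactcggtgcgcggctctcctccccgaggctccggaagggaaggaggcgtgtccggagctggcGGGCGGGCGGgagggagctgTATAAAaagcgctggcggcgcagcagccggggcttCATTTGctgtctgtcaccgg

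In the 300-base window around each start site, Kit held 1 E-box (CACTTG, 8 bases after the start), 1 GC box and no TATAAA. Kitl held 1 E-box (CATTTG, 10 bases after the start), TATAAA at 25 bases before the start and 3 GC boxes, 2 of which overlap. Of 32851 RefSeq promoters of the same length, 72.3% held CANNTG, 13.6% held TATAAA and 35.7% held GGGCGG, so that TATAAA in the Kitl window was the least common of these matches. The GC content was 69% for Kit and 68.7% for Kitl against a median of 52.7% over all these promoters.

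A further sequence is shown because it separates the forms of the ligand. Exon 6 of Kitl (ENSMUSE00000099422, 84 bases, chr10:100080857-100080940, plus strand) was in 1 of the 4 coding transcripts of the annotation, and it is known as the exon that carries the main cleavage site by which the soluble ligand is released, so that transcripts without it keep the ligand on the membrane.
Kitl exon 6: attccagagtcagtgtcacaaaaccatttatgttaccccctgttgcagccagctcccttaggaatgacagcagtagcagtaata

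The cell types were checked by marker genes. Summed over 14 oocyte genes (among them Gdf9, Bmp15 and Zp3), secondary-antral oocytes of the DRaqL-SC3-seq table held a median of 36920 reads per 1000000 reads on protein-coding genes (RPM), primary oocytes 9447 RPM, neighboring granulosa cells 2943 RPM and non-neighboring granulosa cells 64.2 RPM. Summed over 10 granulosa genes (among them Fshr, Foxl2 and Inha), the medians were 151, 583, 6574 and 6743 RPM in the same order. Totals of reads on protein-coding genes ran from 12748 to 17506401 per library over all tables, with medians of 669730 in the DRaqL-SC3-seq table and 221857 in the set from 1 mouse. The authors kept 3 granulosa cells of DRaqL-SC3-seq in a table apart, with 1487 to 11800 RPM of the oocyte genes, and these cells are left out below unless named. The cells that remain reached higher levels of the oocyte genes, up to 17300 RPM at neighboring and 14360 RPM at non-neighboring positions.

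Kit was found in every oocyte. All single oocytes, numbering 44, 18, 15, 12, 8 and 14 in 6 sets, had a Kit read (100%, exact Clopper-Pearson 95% interval 96.7–100%), 22185 reads in all, and the lowest level was 20.5 RPM. Of 330 single granulosa cells, 71 had a Kit read (21.5%, 17.2–26.4%), with 1754 reads in all. By set, this share ran from 4 of 39 cells with DRaqL and the v4 kit to 13 of 37 by the earlier LCM protocol. The intervals over all sets treat cells as independent and do not cover such differences. In DRaqL-SC3-seq libraries the mean log2 (RPM+1) of Kit was 6.60 ± 0.84 (SD, n = 44 oocytes) against 0.98 ± 2.11 (n = 57 granulosa cells), a difference of 5.62. The difference was 7.32 with the v4 kit, 6.83 with DRaqL and the v4 kit, 7.46 after formalin, 5.93 in LCM cells of the 1 mouse and 6.60 in its fresh cells. With DRaqL and the v4 kit, and in the fresh cells of the 1 mouse, no granulosa cell reached the level of the lowest oocyte. Among genes with a mean of at least 4 on this scale in oocytes or granulosa cells, the difference of Kit was above that of 95.2% (LCM cells of the 1 mouse) to 99.9% (formalin) of them. RPM are shares of a cell's reads, and oocytes and granulosa cells differ widely in RNA content, so these differences are not numbers of molecules per cell.

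**Figure D1:**
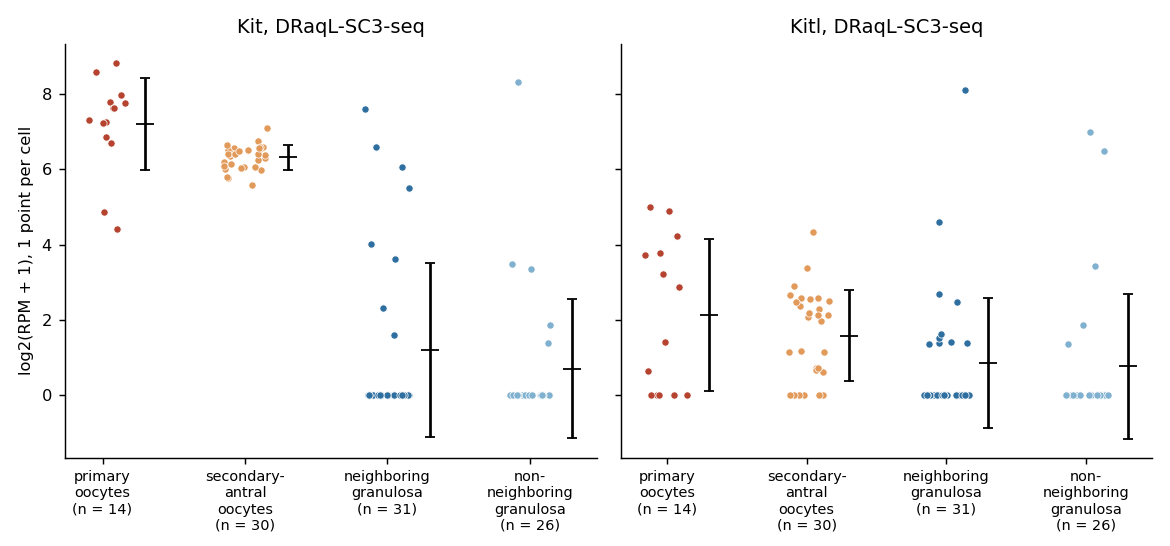
Levels of Kit (left) and Kitl (right) as log2(RPM + 1) in single cells of DRaqL-SC3-seq, 1 point per cell, with the mean and SD as bars, in primary oocytes (n = 14), secondary-antral oocytes (n = 30) and granulosa cells at neighboring (n = 31) or non-neighboring (n = 26) positions. Kit lies above 0 in all oocytes while most granulosa cells sit at 0 for both genes.

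By share of reads, Kit was lower in secondary-antral than in primary oocytes. In DRaqL-SC3-seq libraries, Kit ranged from 20.5 to 453 RPM with a median of 178 in 14 primary oocytes and from 46.6 to 136 RPM with a median of 83 in 30 secondary-antral oocytes. On the log2 scale the means were 7.20 ± 1.23 and 6.32 ± 0.32, a difference of −0.88, and the ranges overlapped. Of the primary oocytes, 2, at 20.5 and 28 RPM, lay below all secondary-antral oocytes. The spread over primary oocytes was thus wider than over secondary-antral oocytes. With the v4 kit, the median was 308 RPM (167 to 472, n = 7) in primary and 192 RPM (113.1 to 325, n = 11) in secondary-antral oocytes, a difference of means of −0.68. With DRaqL and the v4 kit, the medians were 242 RPM (64.2 to 434, n = 6) and 121 RPM (56 to 152, n = 9), a difference of −0.93. After formalin, the levels in primary oocytes were 153, 257, 340, 604 and 654 RPM and those in secondary-antral oocytes lay between 237 and 333 RPM with a median of 307 (n = 7), a difference of −0.27 that was smaller than the SD of 0.87 over the primary oocytes. The mean was lower in the later stage in 4 of 4 sets, and the ranges overlapped in each of them. The study states that its chemistries were compared on sections of the same ovary, so these sets are not independent animals.

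Relative to spike-in RNA, the order of the stages was the opposite. ERCC transcripts were added to each lysate, and counts of them were deposited for 3 of these 4 sets. The median of Kit reads per 1000 spike-in reads was 4.24 in primary and 12.0 in secondary-antral oocytes with the v4 kit, 3.63 and 16.95 with DRaqL and the v4 kit, and 1.76 and 8.38 after formalin. As differences of mean log2 values these were 1.13, 2.15 and 1.61. Coding reads of all genes per spike-in read moved in the same direction, from medians of 18.7 to 72.4, 12.7 to 135 and 6.85 to 26.3 in the same order. The granulosa genes, whose median was 583 RPM in primary and 151 RPM in secondary-antral oocytes of DRaqL-SC3-seq, differed between the stages as well, and their part in the share of Kit was not tested.

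**Figure D2:**
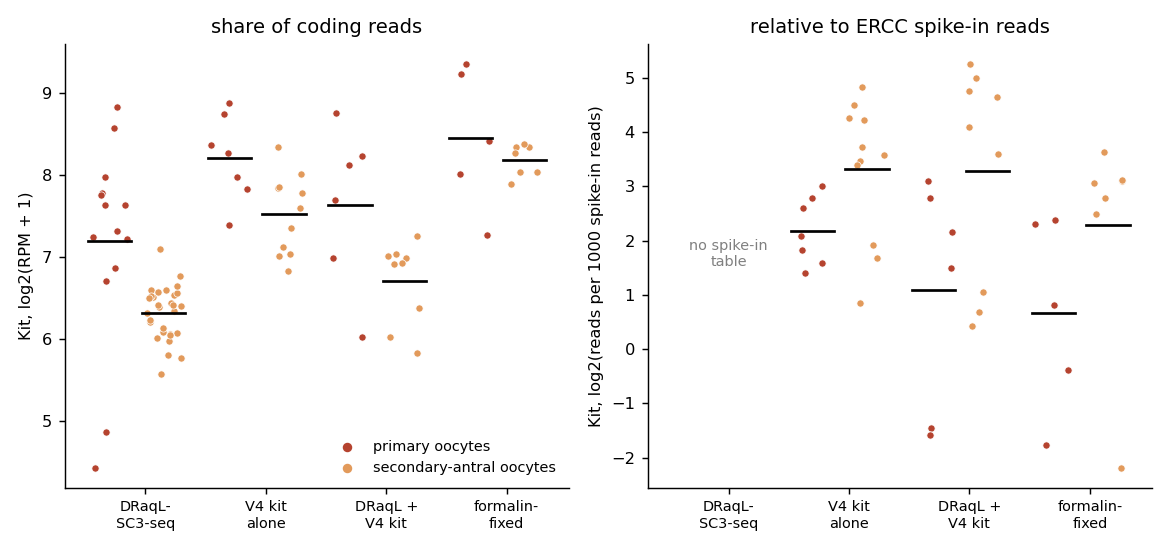
Kit in single primary (red) and secondary-antral (orange) oocytes, 1 point per oocyte and lines at the means, as log2(RPM + 1) in 4 sets (left) and as log2 of reads per 1000 ERCC spike-in reads in the 3 sets with spike-in counts (right). The means of secondary-antral oocytes lie below those of primary oocytes in all 4 sets on the left and above them in all 3 sets on the right.

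Kit was compared between oocytes from sections and fresh oocytes of the same mouse. Oocytes taken by LCM held 63.6 to 295 RPM of Kit with a median of 98.5 (n = 8, secondary-antral), and freshly dissociated oocytes held 82.1 to 230 RPM with a median of 157 (n = 14, grown). The means on the log2 scale were 6.78 ± 0.70 and 7.32 ± 0.46, a difference of −0.55 that lay within the larger SD, with overlapping ranges. Kitl had means of 2.43 ± 1.74 and 2.41 ± 1.22 in the same oocytes, a difference of 0.02. The handling, the lysis and the follicle classes all differed between these groups and cannot be told apart.

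Where the same oocyte was sampled on 2 sections, Kit differed between its sections as well as between oocytes. In the first sections of 8 secondary-antral oocytes, Kit was at 45, 40.1, 42.5, 26.9, 35, 37.3, 35 and 62.4 RPM, and in the second sections of the same oocytes at 29, 32.2, 36.5, 38.1, 30.4, 17.1, 30.0 and 61.4 RPM. The first section was higher in 7 of 8 oocytes, and the last oocyte was the highest on both sections. The SD within an oocyte was 0.36 on the log2 scale and that of the oocyte means was also 0.36. The SD of means over 2 sections holds part of the spread within oocytes. The SD within an oocyte holds any shift between first and second sections, so these SDs do not separate the 2 sources of spread. For Kitl, which ranged from 0 to 9.62 RPM in these libraries, the SD within an oocyte was 1.17 and that of the oocyte means was 0.74, with the same limit.

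Reads of both genes fell almost wholly on their last exons in the libraries counted by exon. In 5 libraries of single oocytes, Kit had 203 to 510 reads per library, and 1757 of 1801 reads (97.6%) lay in its last exon (chr5:75654414-75656722, 2309 bases, 129 of them coding and the rest the 3′ untranslated end). In 10 libraries of mESCs, the share was 98.4% (1644 of 1671 reads). Of Kitl, 40 reads in 4 of 5 oocyte libraries and 1 read in 1 of 10 mESC libraries all lay in its last exon (chr10:100096018-100100413, 4396 bases, none of them coding in that transcript). Exon 6 of Kitl, printed above, had 0 reads in all 15 libraries, as did every other exon of Kitl but the last, so the choice between the forms of the ligand was not detectable in these libraries. The table of junctions held 1 junction of Kit with 3 reads from 2 oocyte libraries and none of Kitl. For the mESCs, each of the 10 exon libraries was most like a 3′ library with the other label (Pearson r over 4937 genes of 0.71 to 0.82 with the nearest library, and at most 0.13 with the next), so these libraries are given over both labels together.

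Kitl was detected in a larger share of oocytes than of granulosa cells, but the highest levels were in granulosa cells. A Kitl read was found in 87 of these oocytes (78.4%, 69.6–85.6%) and in 93 of 330 single granulosa cells (28.2%, 23.4–33.4%). For comparison, mESCs, with a median of 2004431 reads, had a Kitl read in 7 of 45 fresh cells and 2 of 36 LCM cells. In DRaqL-SC3-seq libraries thinned to 162033 reads, the shares were 31.8% of oocytes and 12.3% of granulosa cells. The mean log2 (RPM+1) of Kitl was 1.75 ± 1.51 in oocytes and 0.82 ± 1.81 in granulosa cells, a difference of 0.93 that was smaller than either SD. The median difference over all 21036 genes with a read in this comparison was 0.67, and Kitl lay above it. Among genes with a mean of at least 4, which Kitl did not reach, the median was 2.73. The difference of Kitl was above that of only 18.7% of them. The difference was positive in the other 5 sets too, from 0.75 to 2.19, where the medians over genes with a read ran from 0.32 to 1.05. With the v4 kit, Kitl (1.00) lay below that median (1.05), and in the others above it. Between stages, Kitl was lower in secondary-antral than in primary oocytes by −0.55 in DRaqL-SC3-seq, −1.02 with the v4 kit, −0.16 with DRaqL and the v4 kit and −2.69 after formalin, with overlapping ranges in each set. Per spike-in read the difference was 0.59 with the v4 kit and 1.67 with DRaqL and the v4 kit, opposite in sign. After formalin the difference kept its sign per spike-in read. With a pseudocount of 0.1, the difference with DRaqL and the v4 kit was 0.29. By share of reads, the difference after formalin was larger than the SDs of its groups (2.33 in 5 primary and 2.1 in 7 secondary-antral oocytes), and the other 3 were smaller than the larger SD.

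Summing the reads of a group instead of averaging log values turned that order in 4 of the 6 sets. Kitl took 4.87 RPM of the summed reads of oocytes (exact Poisson 95% interval 4.36–5.43) and 10.3 RPM (9.25–11.5) of those of granulosa cells in DRaqL-SC3-seq, 22.1 against 138 RPM with the v4 kit, 7.61 against 68 RPM in LCM cells of the 1 mouse and 5.83 against 20.7 RPM in its fresh cells. These intervals cover counting error only, and the intervals of shares treat cells as independent draws. Neither kind covers differences between sets or animals. The sums rested on few cells. A single DRaqL-SC3-seq granulosa cell with 171 reads gave 50.0% of all Kitl reads in granulosa cells of that set, and a single v4 cell with 2415 reads gave 74.2% in its set. The highest levels of Kitl in single cells were 889 and 827 RPM in granulosa cells of the 1 mouse taken by LCM and 650 RPM with the v4 kit, against at most 148 RPM in any oocyte. Most granulosa cells thus had no Kitl read while a few had more than any oocyte.

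By position, Kitl differed most in the set from 1 mouse. Of its granulosa cells taken by LCM, 6 of 35 neighboring cells (17.1%, 6.56–33.7%) and 17 of 35 non-neighboring cells (48.6%, 31.4–66%) had a Kitl read, and of its fresh cells 1 of 14 (7.14%, 0.181–33.9%) and 8 of 21 (38.1%, 18.1–61.6%). In both preparations the intervals of the 2 positions overlapped. Per the paper, fresh cells were sorted by attachment to the oocyte within cumulus–oocyte complexes, not by place in a section. The paper also describes profiles mixed with those of oocytes in some fresh granulosa cells, more often in attached ones. Such cells were not set apart here. The oocyte genes reached 19610 RPM in neighboring and 2284 RPM in non-neighboring fresh cells. Mean log2 (RPM+1) of Kitl was lower in neighboring cells by −1.49 by LCM and −1.51 in fresh cells. The median over genes with a mean of at least 4, which Kitl did not reach, was −0.01 by LCM but −1.37 in fresh cells. Over all genes with a read, the median was −0.03 by LCM and −0.49 in fresh cells. Kitl in fresh cells thus differed about as much as genes at the higher level, but more than the median gene with a read. The granulosa genes also had medians of 9660 RPM in neighboring and 31670 RPM in non-neighboring fresh cells. After thinning each library to 50000 reads, the counts were 3 of 34 against 11 of 35 by LCM and 1 of 13 against 6 of 20 in fresh cells, with 1 neighboring library left out by LCM and 1 of each position left out of the fresh cells. Non-neighboring cells had the larger share in library pools with an oocyte (9 of 12 against 4 of 10 by LCM, 6 of 14 against 0 of 6 fresh) and without one (8 of 23 against 2 of 25, and 2 of 7 against 1 of 8). Summed over Lhcgr and Cd34, genes of mural granulosa cells, the highest cell was at 7345 RPM among non-neighboring and 125 RPM among neighboring LCM cells with a median of 0 in both. Genes of theca and interstitial cells had a median of 40.05 RPM (highest 9657) in non-neighboring and 7.73 RPM (highest 459) in neighboring LCM cells. The part of mural, theca and interstitial cells in the Kitl shares was not tested. The median of the 14 oocyte genes was 350 RPM in neighboring and 124 RPM in non-neighboring LCM cells. All of these cells came from 1 animal, and no test over animals could be made.

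The other 6 sets gave no common order for Kitl. Neighboring against non-neighboring cells with a Kitl read were 10 of 31 against 5 of 26 in DRaqL-SC3-seq (32.3% and 19.2%), 8 of 17 against 8 of 17 with the v4 kit, 3 of 20 against 5 of 19 with DRaqL and the v4 kit, 2 of 17 against 3 of 20 with the earlier LCM protocol, 5 of 15 against 6 of 19 with DRaqL-Smart-seq2 and 3 of 12 against 3 of 12 after formalin. All pairs of intervals overlapped widely. With the 3 cells kept apart, the DRaqL-SC3-seq counts were 11 of 32 and 6 of 28. Within DRaqL-SC3-seq, cells numbered up to 72 had a Kitl read in 6 of 22 neighboring and 1 of 20 non-neighboring cells, and cells with higher numbers in 4 of 9 and 4 of 6, so the difference of shares had opposite signs in the 2 runs of numbers.

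**Figure D3:**
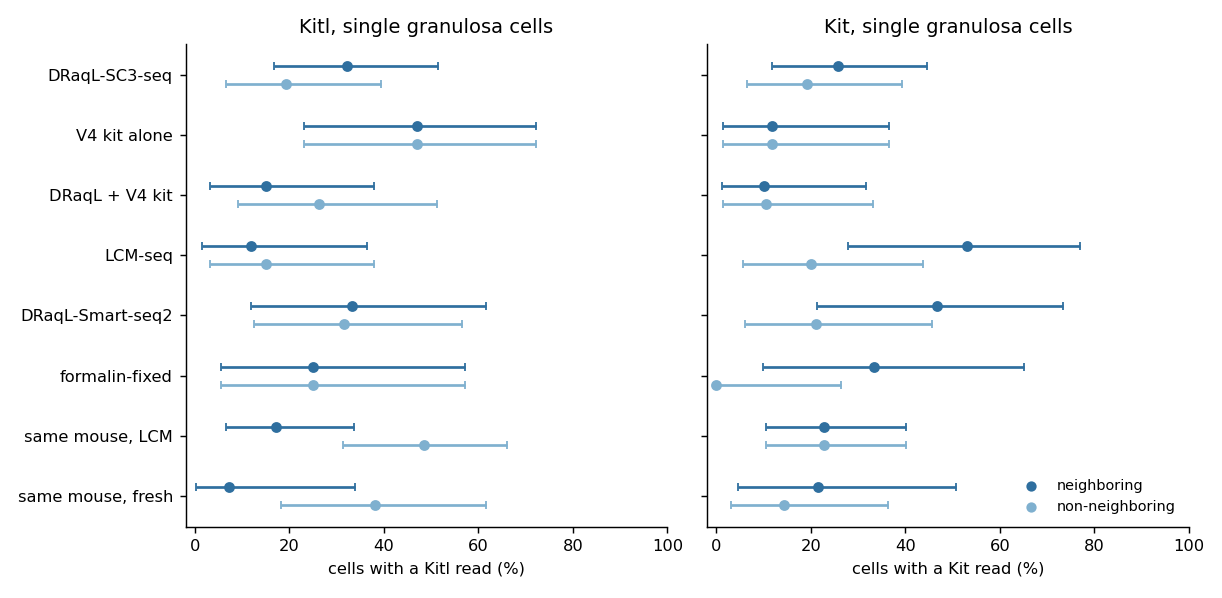
Percent of single granulosa cells with at least 1 read of Kitl (left) or Kit (right), with exact 95% intervals, for neighboring (dark) and non-neighboring (light) cells of 8 sets. For Kitl the non-neighboring share is the larger in both sets from the same mouse (48.6% against 17.1% by LCM), while for Kit the neighboring share ranges from well above the non-neighboring share (4 of 12 against 0 of 12 after formalin) to equal to it (2 of 17 each with the v4 kit).

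Kit reads in granulosa cells went with higher levels of oocyte genes. Granulosa cells with a Kit read had a median of 714 RPM over the 14 oocyte genes (n = 71), against 135 RPM in cells without one (n = 259), over sets of different chemistry. In DRaqL-SC3-seq the medians were 3043 RPM (n = 13) and 294 RPM (n = 44). In LCM cells of the 1 mouse they were close, at 264 RPM (n = 16) and 219 RPM (n = 54). For Kitl, the DRaqL-SC3-seq medians were 1646 RPM with a read (n = 15) and 110 RPM without (n = 42). Over all granulosa cells the order for Kitl was the opposite, at 155 RPM (n = 93) and 204 RPM (n = 237). Kit reads per 1000 reads of the oocyte genes were 4.22 in granulosa cells and 4.21 in oocytes of DRaqL-SC3-seq, 6.70 and 9.85 with the v4 kit, 2.61 and 11.1 with DRaqL and the v4 kit, 13.1 and 17.4 after formalin, and 4.25 and 5.27 in fresh cells of the 1 mouse. In LCM cells of the 1 mouse the values were 20.2 and 4.6, and 1 non-neighboring cell with 589 Kit reads (742 RPM, above every oocyte) and 447 RPM of oocyte genes held 96.4% of the Kit reads of its group. The oocyte values of DRaqL-SC3-seq, of the v4 kit with and without DRaqL and of formalin pool both stages, and so depend on their mix. In DRaqL-SC3-seq, primary oocytes had medians of 178 RPM of Kit and 9447 RPM of the oocyte genes. Secondary-antral oocytes had 83 and 36920 RPM, and the granulosa cells came from secondary-to-early antral follicles. The part of oocyte RNA in the Kit reads of granulosa cells was not tested. By position, a Kit read was found in 9 of 17 neighboring and 4 of 20 non-neighboring cells by the earlier LCM protocol, in 4 of 12 and 0 of 12 after formalin, and in 7 of 15 and 4 of 19 with DRaqL-Smart-seq2. By the approximate limit of 3 divided by the number of cells, not the exact interval, 0 of 12 allows a share of up to 25.0%. In DRaqL-SC3-seq the counts were 8 of 31 and 5 of 26, with the v4 kit 2 of 17 and 2 of 17, with DRaqL and the v4 kit 2 of 20 and 2 of 19, by LCM in the 1 mouse 8 of 35 and 8 of 35, and in its fresh cells 3 of 14 and 3 of 21. Reads of both genes were present in 18 of 330 granulosa cells, where the product of the 2 shares gives 20.0.

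The pools of granulosa cells from early antral follicles were the groups with replicates, 7 pools of about 10 cells for each position, which let position be tested. Kitl was at 33.3, 22.1 and 0.137 RPM in neighboring pools 1, 2 and 3 and at 0 in pools 4 to 7, and at 55.4 RPM in non-neighboring pool 1 and at 0 in pools 2 to 7. Most pools thus had no Kitl read at totals of 3811945 to 8259281 reads, and 1 library held all of the reads of the non-neighboring group. The mean log2 (RPM+1) was 1.40 ± 2.34 against 0.83 ± 2.20 (n = 7 each), and the difference was smaller than the spread of either group (difference 0.57, two-sided exact permutation test over 3432 splits, p = 0.853, the largest of 4 such tests of the 2 genes). In edgeR's quasi-likelihood fit over all 19026 genes with a read, the log2 fold change was −0.30 with an SE of 2.07 (Benjamini-Hochberg adjusted p = 0.992). Neither test paired pools of the same number.

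Kit was at 0, 2.48, 0.825, 0.170, 87.9, 5.68 and 0 RPM in neighboring pools 1 to 7 and at 0, 0.200, 4.06, 0, 0, 0.787 and 0 RPM in non-neighboring pools 1 to 7. Neighboring pool 5, the highest for Kit, was also the highest of all pools for the oocyte genes at 8865 RPM. The mean log2 (RPM+1) was 1.73 ± 2.33 against 0.49 ± 0.87 (difference 1.24, exact permutation test, p = 0.217, adjusted over 4 tests 0.738). The edgeR log2 fold change was 4.01 with an SE of 2.01 (p = 0.0566, adjusted p = 0.400), and it was 0.91 without neighboring pool 5. Neither gene passed the filter on low counts that left 9704 genes, of which 44 (0.453%) were called at an adjusted p under 0.05, all higher in neighboring pools, but 3 were called without neighboring pool 5 and 3 with the pool number as a block. Among those called were 9 of the 14 oocyte genes (Gdf9, Bcl2l10, Zp3, Oosp1, Obox1, Oog3, Obox2, Obox5 and H1foo), and the oocyte genes ranged from 856 to 8865 RPM in neighboring and from 2.34 to 151 RPM in non-neighboring pools without overlap. The granulosa genes had 0 calls of 6 tested, and in pools a smaller share of cells of a type and less RNA per cell cannot be told apart.

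Bulk granulosa samples are the whole granulosa of a sectioned follicle. Per the paper, 4 were early antral follicles whose oocyte was taken out first. The others were follicles of unidentified stage with no oocyte in the section. The pools were all from early antral follicles, so stage also differs in this comparison. Kitl was at 0.160, 0.414, 6.54, 57.4, 0, 0.537 and 0 RPM and Kit at 0.160, 0.207, 0.159, 0.443, 1.10, 0.134 and 0.261 RPM in samples 1, 2, 3, 4, 5, 6 and 8. Every bulk sample had at least 1 Kit read, but the 7 samples together had 15. Bulk sample 4, the highest for Kitl with 389 reads, was also the highest for the oocyte genes (1713 RPM). Against the 14 pools, the mean of Kitl differed by 0.33 (exact permutation test over 116280 splits, p = 0.825) and that of Kit by −0.71 (p = 0.369). The edgeR log2 fold changes were 0.32 with an SE of 1.64 for Kitl (adjusted p = 1.00) and −3.04 with an SE of 1.55 for Kit (adjusted p = 0.421), where 12 of 11917 genes (0.101%) were called.

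**Figure D4:**
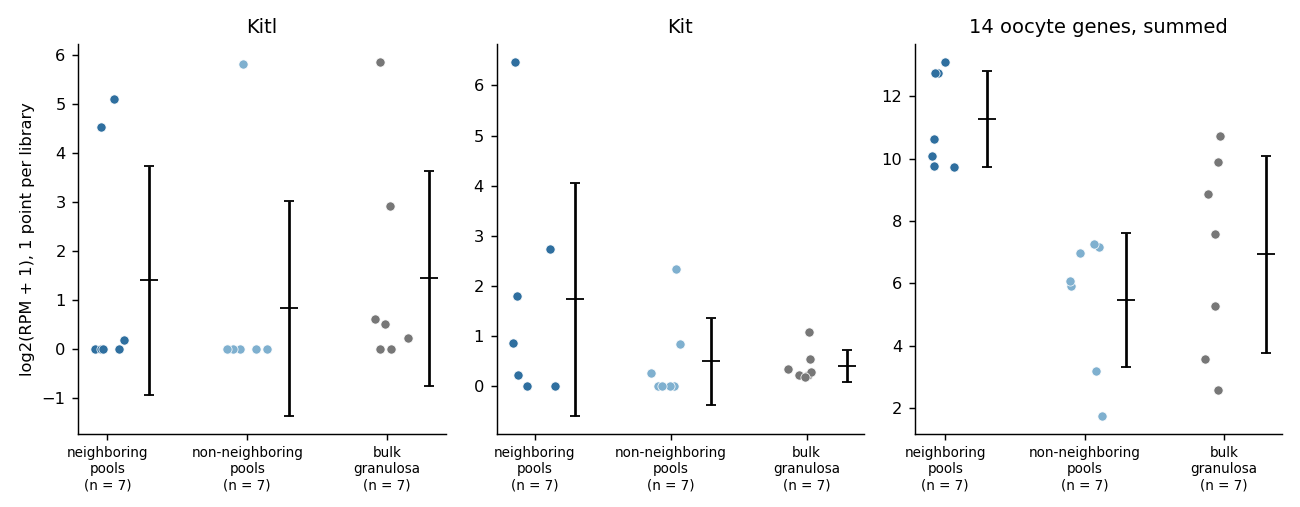
Levels of Kitl, Kit and the sum of 14 oocyte genes as log2(RPM + 1) in neighboring pools, non-neighboring pools and bulk granulosa samples (n = 7 each), 1 point per library with the mean and SD as bars. Kitl and Kit overlap between all 3 groups, while the oocyte genes of the neighboring pools (856 to 8865 RPM) lie above those of the non-neighboring pools (2.34 to 151 RPM).

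The other genes of KIT signalling were taken from a list of 110 genes (the members included) in 7 roles. In DRaqL-SC3-seq, 68 of them reached 4 in the mean log2 (RPM+1) of either cell type, and 55 were higher by at least 1 in oocytes, 7 were lower and 6 lay between. Over all 7474 genes at that level, 80.8% were higher and 6.05% lower, and the median difference was 2.71 for the list and 2.73 for all genes, so that the list followed the genes as a whole. Kit, at 5.62, was the member of its role with the largest difference, above Pdgfa at 3.88 and Il34 at 3.59, the ligands of related receptors, while Pdgfc, another such ligand, was lower in oocytes by −4.58. The shedding proteases Adam17 (3.72) and Adam10 (2.22) were higher in oocytes. Among adaptors and kinases at the receptor, Stat3 (5.54), Grb10 (5.18) and Jak2 (4.78) were higher and Gab2, a docking protein, was lower (−1.20).

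Downstream of the receptor, Foxo3 (5.25), a transcription factor that restrains the activation of primordial follicles, and Tsc1 (4.15) and Mtor (4.15), which regulate and form the growth kinase mTOR complex, were higher in oocytes. Ribosomal protein gene Rps6 (−1.43) and Foxo1 (−1.16) were lower in oocytes. In the RAS branch, Mapk3 (3.42), Hras (3.18) and Rps6ka1 (3.08) were higher and no gene was lower by 1 or more. The inhibitors Ptpn11 (3.13), a phosphatase that also passes the signal on, and Socs6 (3.01) were higher in oocytes. Of the regulators, the oocyte factors Nobox (7.65), Gdf9 (7.23) and Lhx8 (7.05) stood above Kit in difference, while Fshr, the receptor of follicle-stimulating hormone, was lower in oocytes (−5.02), as were Npr2, the receptor through which granulosa cells hold meiosis (−4.91), and Foxl2 (−1.49). Granulosa cells of this set thus had high levels of the receptors Fshr (7.52 ± 2.51) and Npr2 (6.16 ± 3.13) on the log2 scale although 42 of 57 had no Kitl read.

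**Figure D5:**
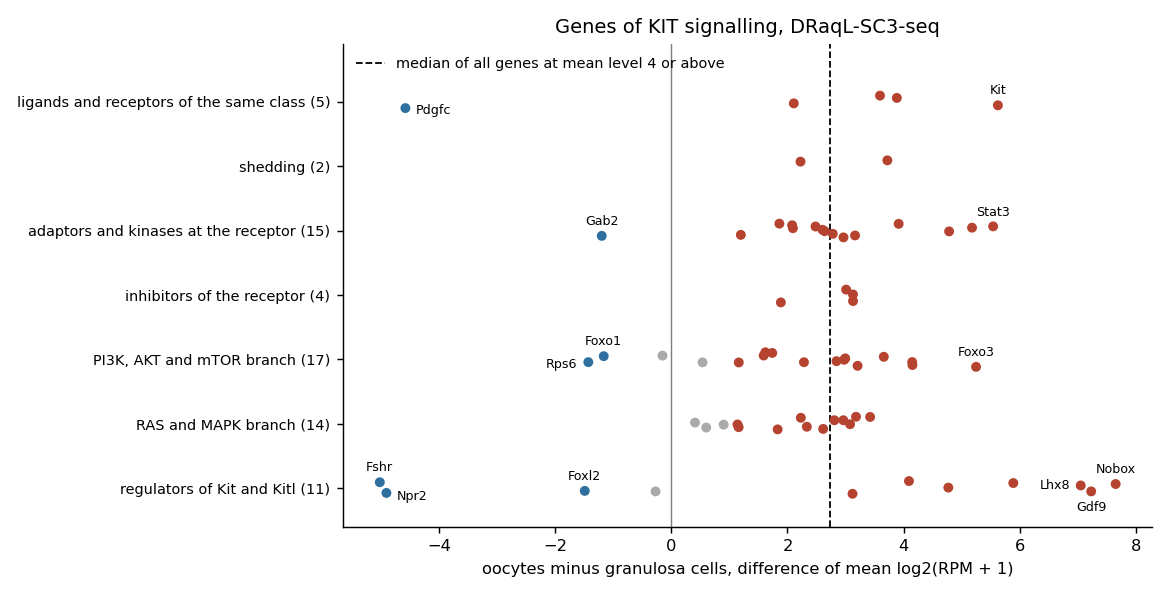
Difference of mean log2(RPM + 1) between 44 oocytes and 57 granulosa cells of DRaqL-SC3-seq for 68 genes of KIT signalling in 7 roles (number of genes in parentheses), 1 point per gene, red at 1 or above, blue at −1 or below and grey between. Most points lie on the side of oocytes around the median of all genes at that level (dashed, 2.73), and Kit, at 5.62, lies to its right.

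Between stages, the list followed the genes as a whole, with a median difference of 0.46 against 0.43 for all genes. Of 70 genes of the list at a mean of at least 4 in either stage of DRaqL-SC3-seq, 22 were higher by at least 1 in secondary-antral oocytes and 11 were lower, against 35.2% and 15.8% of all 8350 genes, and Kit (−0.88) lay between. Sohlh1, a factor of early oocytes known to be needed for Kit, had a mean of 8.70 ± 1.00 in primary and 3.00 ± 2.21 in secondary-antral oocytes, a difference of −5.70, and its partner Sohlh2 differed by −2.57. Stat3 (−2.13), Eif4ebp1 (−3.30), Tsc2 (−2.65) and Rptor (−1.81) were lower as well. Higher in secondary-antral oocytes were the growth factors Fgf8 (4.36), Bmp15 (4.04) and Gdf9 (3.01), the kinase subunit Pik3cd (3.88) and the inhibitor Socs1 (3.67). Foxo1 (1.87) and Foxo3 (1.45) were also higher. As above, these are shares of reads, and totals per spike-in read were larger in secondary-antral oocytes of the 3 sets with spike-in counts.

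In mESCs, Kit was present and Kitl nearly absent. All 45 fresh cells and 35 of 36 LCM cells had a Kit read, with medians of 48.7 RPM (4.72 to 214) and 21.6 RPM (0 to 102.7). The means were 5.63 ± 1.44 and 4.07 ± 1.80, a difference of −1.57 in cells labelled LCM, and 1.77% of 5366 genes had a lower difference, where the median over these genes was −0.17. Since the exon libraries of mESCs were most like 3′ libraries with the other label, this direction is that of the 3′ libraries as labelled. Of 38 genes of the list at a mean of at least 4, 0 were higher and 3 were lower by at least 1 (Kit, Plcg1 at −1.39 and Sh2b3 at −1.12), against 0.857% and 8.29% of all genes. Kit is also a marker of mast cells, and summed over 5 genes of mast cells the level was at most 4.89 RPM in fresh and 5.27 RPM in LCM cells, with Mcpt4 and Tpsb2 at 0 in both.

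Ordered by mean log2 (RPM+1) over 29 groups of single cells and sections, Kit ran from 8.46 ± 0.87 in primary oocytes after formalin to 0 in all 12 non-neighboring granulosa cells of that set. The 10 groups of single oocytes took ranks 1 to 10 (6.32 and above), mESCs and oocyte sections ranks 11 to 13 (5.63, 5.20 and 4.07) and the 16 groups of granulosa cells ranks 14 to 29 (2.58 and below). No step between neighbors in that order was larger than the greater of their SDs, and the groups differ in chemistry and depth. Kitl had no such order, with primary oocytes after formalin first (4.88 ± 2.33), then primary oocytes with the v4 kit (4.31 ± 1.76) and, at rank 4, non-neighboring granulosa cells with the v4 kit (3.01 ± 3.81). Over these 29 groups, which share libraries' chemistries by set, the genes whose means were most like those of Kit were Pnldc1 (Pearson r = 0.97), Xlr3b, Xlr3a, Tubb2b and Xlr3c (r = 0.96 to 0.97, of which the Xlr3 genes are near-identical copies with uncertain counts), and those most like Kitl were Crebl2 (r = 0.78), Fn3k, Msrb3, Fbxo21 and Prox1 (r = 0.77 to 0.78). The r between Kit and Kitl was 0.57. Over the 44 oocytes of DRaqL-SC3-seq, Cnpy1 was the gene most like Kit (Spearman's rho 0.72), followed by Rmdn3, Itfg1, Ppapdc1b and Fam173b (0.66 to 0.71), and over the 21 pools and bulk samples Maged2 was most like Kitl (0.81), followed by Ing4, Map2k4, Mpnd and AW011738 (0.75 to 0.81). Only 4 of 14 pools and 5 of 7 bulk samples had a Kitl read, so that rho with Kitl rests on many ties. These names are the highest of 7219 genes for Kit and of 5896 for Kitl, and the likeness was not tested.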

How the data were processed

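The authors deposited read counts per gene, exon and junction without normalization. Per the labels, reads were trimmed with fastp 0.20.0 and cutadapt 1.16, aligned to GRCm38 with HISAT2 2.1.0 and counted with HTSeq 0.10.0 within 10 kb of 3′ ends, or over exons with featureCounts 2.0.1, so that levels reflect 3′ ends. Each count was scaled to the sum of protein-coding counts of its library (RPM) and taken as log2 (RPM+1). Other genes took medians of 24.6 to 33.7% of the reads where listed. Pools and bulk samples were tested with edgeR 4.0.16 (R 4.3.3, TMM scaling, quasi-likelihood F-test, Benjamini-Hochberg threshold 0.05) and by two-sided exact permutation tests, both tested on simulated data. The permutation tests listed all splits in Python 3.11.15, and their p-value was compared with that of scipy 1.17.1 on an example. Neither Kit nor Kitl passed the planned filterByExpr, so their fits without that filter are given. The samples behind the pools are not tied to animals, so p-values measure the spread between these libraries. Shares carry Clopper-Pearson and summed counts exact Poisson 95% intervals.

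Kit, Kitl and the lists were chosen with earlier results of these data known. Named genes of the signalling list are the 3 per role and direction with the largest difference between oocytes and granulosa cells among those at a mean of at least 4, called genes in tests, and the 5 most alike genes. The same rule was used for stages and mESCs after their values were seen, and not all genes it takes are printed. Alternatives were DESeq2 1.42.0, other scalings, filters, pseudocounts and read minimums, spike-in reads, thinned libraries, the pool number as a block and leaving out libraries. Promoters come from RefSeq (GRCm38.p6).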

Additional observations from a re-analysis of the deposited data

Results flagged for a closer look

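In 5 of 23 sets of libraries of 1 group (4 to 10 libraries, either gene), 1 library stood apart from the rest by Dixon's ratio of the gap to the range at the 95% limit. That limit assumes normal values, while many of these counts are 0, so the number flagged cannot be set against a chance rate. Where all other libraries are at 0, the ratio is 1 at any level. Kit was at 87.9 RPM in 1 neighboring pool, with 5.68 RPM next, at 4.06 RPM in 1 non-neighboring pool, with 0.787 RPM next, and at 1.10 RPM in 1 bulk sample, with 0.443 RPM next. Kitl was at 55.4 RPM in 1 non-neighboring pool and at 0.0816 RPM (1 read) in 1 exon library of mESCs labelled LCM, with the others of each group at 0.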

How the results depend on the processing

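Calls in the pools and bulk samples moved with the settings, and the causes were not tested. In the pools, 44 genes were called at the settings reported, about 1.2e+02 by DESeq2 (11 of them lower in neighboring pools), 3 with the pool number as a block and 3 (without neighboring pool 5) to 56 (without neighboring pool 1) when libraries were left out in turn. In the bulk comparison, 12 genes were called, 463 without the filter on low counts, 67 by DESeq2, 84 with upper-quartile scaling, 136 with all genes of the table, and 0 (without bulk sample 3) to 57 (without bulk sample 4) when libraries were left out.

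Kitl had no stable direction in the pools: its log2 fold change was −0.30 as reported, 1.56 with the pool number as a replicate block, and −1.40 (without neighboring pool 1) to 8.17 (without non-neighboring pool 1, where all other pools of that group are at 0, so that the value depends on the prior count). Against the bulk samples it ran from −2.49 (without bulk sample 4) to 4.59 (without non-neighboring pool 1). Kit ran from 0.91 (without neighboring pool 5) to 6.13 in the pools, with 2.57 under the block, and from −3.65 to −1.53 in the bulk comparison. The smallest adjusted p of the edgeR fits over these omissions was 0.219 for Kitl and 0.253 for Kit in the pools, and 0.130 and 0.333 in the bulk comparison. Of the neighboring pools, 5 of 7 correlated best with the non-neighboring pool of their own number. The correlation of same-numbered pools was over 0.1 for 2 of 7 numbers (r = 0.02 to 0.18). Whether the numbers pair the pools was not tested, and the tests reported above do not pair them.

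For single cells, 191 of 225 alternatives over 42 differences of means moved the value by less than the SD over cells, and 23 changed its sign. The higher Kit in oocytes than granulosa cells kept its sign under every alternative run. In the order DRaqL-SC3-seq, v4, DRaqL with v4, formalin, LCM and fresh cells of the 1 mouse, it was 8.21, 10.26, 9.85, 10.26, 8.54 and 9.36 with a pseudocount of 0.1, and 3.01, 4.35, 3.79, 4.61, 3.23 and 3.83 with one of 10. As a log2 ratio of summed counts it was 3.27 (DRaqL-SC3-seq), 4.98 (v4), 3.9 (formalin) and 2.33 (LCM, 1 mouse), and per spike-in read 11.27 (v4), 10.0 (DRaqL with v4) and 10.01 (formalin). Kitl, higher in oocytes by mean log values, was lower by summed counts, at −1.08 (DRaqL-SC3-seq), −2.65 (v4), −3.16 (LCM, 1 mouse) and −1.83 (fresh), and higher per spike-in read, at 5.13 (v4) and 3.69 (DRaqL with v4). Per spike-in read, secondary-antral minus primary oocytes gave 1.13, 2.15 and 1.61 for Kit (v4, DRaqL with v4, formalin) and 0.59 (v4) and 1.67 (DRaqL with v4) for Kitl. The difference of Kitl after formalin kept its sign per spike-in read. By summed counts, neighboring minus non-neighboring cells gave 2.92 for Kit (DRaqL with v4) and −2.29 for Kitl (earlier LCM protocol), LCM minus fresh mESCs gave −2.03 for Kitl, and LCM minus fresh granulosa cells of the 1 mouse gave 3.20 for Kit. In DRaqL-SC3-seq cells numbered above 72, neighboring minus non-neighboring Kitl was −1.78. Depth limits the shares of both genes in granulosa cells, since thinning to the shallowest library of a set lowered them (by LCM in the 1 mouse to 11 of 70 cells for Kitl and 3 of 70 for Kit), and a cell without a read was not shown to lack the transcript.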
